A study of Mus musculus with 20 samples.

Results

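Swiss 19, a clonal preadipose line of Swiss 3T3 mouse fibroblasts, was compared with Swiss 5 and Swiss 22, a pair of clones of the same parental cells that do not form fat cells. The comparison covers 18193 genes and rests on 8 of the series' 20 arrays, 2 of Swiss 19, 3 of Swiss 5 and 3 of Swiss 22. The arrays were chosen by the line named in their titles. Swiss 3T3 cells are immortalized mouse embryo fibroblasts, and no line carried a transgene or an added agent according to the labels. All cells were kept in DMEM with 10% bovine serum, a medium that does not start differentiation, and were collected while still dividing. The other 12 arrays hold the preadipose clones Swiss 2, Swiss 8 and Swiss 9 and the non-adipogenic clone Swiss 3. Swiss 19 is a single clone, so a difference from Swiss 5 and Swiss 22 is a difference between these clones, and clonal variation and fat-forming ability cannot be told apart. The labels do not state whether each array had its own culture. The p-values therefore measure only the spread between arrays, which may be technical.

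Preadipocytes are fibroblast-like cells that are committed to the fat lineage but hold no fat yet. When they stop dividing and meet adipogenic hormones, C/EBP-beta and C/EBP-delta are induced first, then PPAR-gamma and C/EBP-alpha, and these factors switch on the genes of lipid uptake and storage. Signals such as Wnt, Hedgehog and active TGF-beta are known to hold cells back from this step, and the surrounding matrix and cell shape are known to influence it.

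The study's question was which genes set committed fibroblasts apart before differentiation begins. In these 3 lines the arrays of one clone resembled each other most. Over the 9096 brighter genes, Pearson correlations of normalized log2 values ran from 0.987 to 0.992 between arrays of a line. They ran from 0.977 to 0.984 between Swiss 5 and Swiss 22, and from 0.946 to 0.957 between Swiss 19 and either of them. All 8 arrays were bright by the hybridization spikes (mean log2 level 10.19 to 10.42), but the mean intensity of the Swiss 5 arrays, 93.0 to 100.04, was below that of Swiss 22, 131.9 to 146.3, and of Swiss 19, 141.6 to 156.7. The defining fibroblast genes were well measured: all 12 fibroblast markers were above background on every array of all 3 lines.

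Levels are given below as scaled intensity, which is the deposited intensity after each array was brought to the same trimmed mean of 500. Background on this scale, taken from bacterial control probe sets, lay between 57.3 and 114.8 on the 8 arrays. A gene was called when its limma adjusted p was below 0.05, its arrays did not overlap between the sides, and the brighter side was above background on each of its arrays. Log2 differences come from quantile-normalized values with a pseudocount of 32. They understate changes of dim genes and exceed the log2 of the scaled ratio for the brightest genes, so folds are always ratios of scaled intensity. Where the dimmer side was not above background on all of its arrays, the fold is a lower bound and is given as "at least".

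Swiss 19 differed from both non-adipogenic clones in many genes and by moderate amounts. In all, 1378 genes (7.57%) were called higher and 1361 (7.48%) lower in Swiss 19, together 15.1% of the genes tested. Of these, 84 were higher and 47 lower by a log2 difference of at least 1, together 0.72%. The calls are against the mean of the clones. Of the 2739 called genes, 1616 were also called the same way against each clone alone, in comparisons that share the Swiss 19 arrays. By adjusted p alone 2865 genes (15.7%) passed, and 4798 (26.4%) had an unadjusted p below 0.05. Among the 12641 genes above background in at least 1 of the 3 lines, 21.7% were called, 10.9% higher and 10.8% lower. The split between the directions moved with the scaling of the arrays. Median centring alone gave 2088 genes higher against 504 lower, so that 80.6% of the calls were higher. Without normalization, where the median of all genes lay at 0.18, it was 3748 against 201. Linear scaling with a larger pseudocount and no quantile step, an alternative chosen after seeing the data, gave 1028 against 1016.

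The count of differences between the clones of the non-adipogenic class depended on the normalization. With quantile normalization, by the same test, Swiss 5 had 185 genes higher (1.02%) and 228 lower (1.25%) than Swiss 22, together 2.27%, and 7 of them (0.0385%) by a log2 difference of at least 1. Without Swiss 22 replicate 2 it was 31 higher and 27 lower. Median centring gave 85 higher and 4578 lower and no normalization 36 and 6992, in each case more calls than Swiss 19 had against both clones under the same setting. With quantile normalization Swiss 19 had more calls than these 413 against either clone. Against Swiss 5 alone, Swiss 19 had 1343 genes higher (7.38%) and 1292 lower (7.1%), together 14.5%. Against Swiss 22 alone it had 1128 higher (6.2%) and 1176 lower (6.46%), together 12.7%. These comparisons share the Swiss 19 arrays. Over all 18193 genes the median size of the log2 difference between Swiss 19 and the mean of those clones was 0.095, against 0.082 between Swiss 5 and Swiss 22, and it was the larger of the 2 in 56.4% of the genes. Swiss 19 has only 2 arrays, and the count of Swiss 19 against both clones rested on both: without replicate 1 it fell to 631 higher and 585 lower, and without replicate 2 to 704 and 645. With line means as the only replicates, 1 against 2, 105 higher and 66 lower genes were called, and all 171 are among the 2739 genes called in either direction with arrays as replicates.

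**Figure D1:**
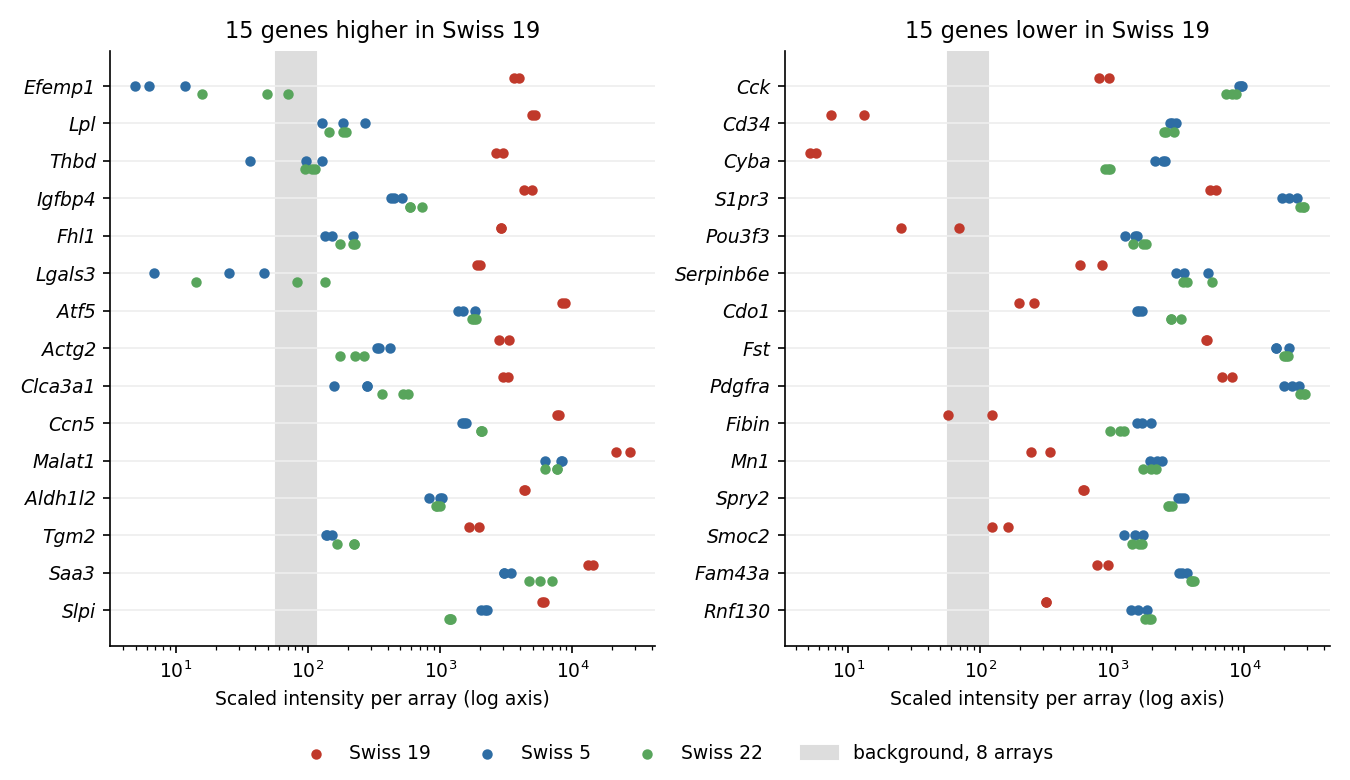
Scaled intensity on each of the 8 arrays (log axis) for the called genes that differed most, 15 higher and 15 lower in Swiss 19. Each point is 1 array, and the grey band is the range of background over the 8 arrays. The points of Swiss 19 lie apart from those of Swiss 5 and Swiss 22 in all 30 genes, which the call rule requires of their normalized values. Among the lower genes Cd34, Cyba and Pou3f3 fall into or below the band on both Swiss 19 arrays, and Fibin does so on replicate 1 (56.6).

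The largest excess in Swiss 19 was in Efemp1, which encodes the matrix glycoprotein fibulin-3. It measured 3956 and 3602 on the Swiss 19 arrays, 4.92, 6.31 and 11.8 on those of Swiss 5, and 70.2, 15.7 and 48.5 on those of Swiss 22. No array of the non-adipogenic clones was above background, and the gene was at least 44.1-fold higher in Swiss 19 (log2 difference 3.04 ± 0.066 SE, limma adjusted p = 1.16e-07). Lpl encodes lipoprotein lipase, the enzyme that frees fatty acids for uptake by fat and muscle. It measured 5214 and 4993 in Swiss 19, 183, 127 and 271 in Swiss 5, and 193, 184 and 144 in Swiss 22. This is a 27.8-fold excess (log2 difference 3.01 ± 0.085 SE, adjusted p = 2.41e-07), and both Lpl probe sets had the same direction. Thbd, the thrombin-binding surface protein thrombomodulin, measured 3001 and 2664 in Swiss 19 and at most 127 on any other array, at least 26.5-fold higher.

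Fhl1, a LIM-domain protein abundant in muscle, was 15.4-fold higher, at 2865 and 2888 in Swiss 19 against 135 to 226 on the 6 other arrays, although its second probe set showed no such difference (log2 difference -0.06). Lgals3, the sugar-binding protein galectin-3, was at least 21.4-fold higher, at 2013 and 1891 against 6.88 to 135. Igfbp4, which binds insulin-like growth factors, measured 4937 and 4331 against 427 to 727, an 8.43-fold excess, and its 6 probe sets all had the same sign. Tgm2, the cross-linking enzyme tissue transglutaminase, and Actg2, the smooth muscle gamma actin, were each 10.4-fold higher. These 5 genes were picked from the called ones, and the call rule itself requires that the arrays of Swiss 19 do not overlap those of the clones.

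The other genes of this group were Clca3a1, a chloride channel regulator (8.64-fold higher), Atf5, a transcription factor of the amino acid stress response (5.11-fold), Aldh1l2, a mitochondrial folate enzyme (4.56-fold), Ccn5, a matricellular protein (4.39-fold), Slpi, a secreted protease inhibitor (3.58-fold), Malat1, a nuclear long noncoding RNA (3.31-fold), and Saa3, an acute phase protein (3.05-fold). Aldh1l2 measured 4344 and 4357 in Swiss 19 against 816 to 1039 elsewhere. Saa3, Ccn5 and Slpi were also called between the non-adipogenic clones: Swiss 5 minus Swiss 22 gave a log2 difference of -0.73 for Saa3, -0.31 for Ccn5 and 0.64 for Slpi.

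On the log2 scale with the pseudocount of 32, the gene farthest below the non-adipogenic clones in Swiss 19 was Cck, which encodes the peptide hormone cholecystokinin; on the scale of scaled intensity Cd34 and others had larger folds. Its arrays read 797 and 947 in Swiss 19, 9590, 9472 and 9036 in Swiss 5, and 8001, 7194 and 8588 in Swiss 22. It was 9.92-fold lower in Swiss 19 (log2 difference -2.69 ± 0.076 SE, adjusted p = 2.41e-07). Cd34, a surface sialomucin used to sort stem and progenitor cells from adipose tissue, measured 7.43 and 13.3 in Swiss 19, where it was not above background, and 2465 to 3016 on all 6 other arrays. The deficit was at least 35.8-fold (limma adjusted p = 2.41e-07), with a log2 difference of -2.67 ± 0.069 SE. Cyba, a membrane subunit of superoxide-making NADPH oxidases, measured 5.14 and 5.69 in Swiss 19 against 2109 to 2499 in Swiss 5 and 882 to 954 in Swiss 22, at least 21.2-fold lower. Both genes were thus below background in Swiss 19 and clearly measured on every array of the other clones.

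Several receptors and signalling proteins were also lower in Swiss 19. Pdgfra, a platelet-derived growth factor receptor of mesenchymal progenitors, measured 7991 and 6725 against 20005 to 28752 on the other arrays, 3.44-fold lower (log2 difference -1.68 ± 0.103 SE, adjusted p = 1.45e-05), with the same sign in all 3 probe sets. S1pr3, a receptor for sphingosine-1-phosphate, was 4.26-fold lower. Fst, the secreted activin antagonist follistatin, measured 5081 and 5165 against 17343 to 21806, 3.86-fold lower. Spry2, a feedback inhibitor of growth factor signalling, was 4.97-fold lower, at 610 and 604 against 2643 to 3492, although its second probe set showed little difference (log2 difference -0.07).

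Pou3f3, a POU-domain transcription factor, was not above background in Swiss 19 (25.1 and 69.5) and measured 1238 to 1812 elsewhere, at least 19.9-fold lower. Fibin, a secreted factor, was at least 13.9-fold lower, and the transcriptional regulator Mn1 was 7.07-fold lower. The matricellular protein gene Smoc2 measured 162 and 123 against 1217 to 1718, a 10.6-fold deficit. Cdo1, cysteine dioxygenase, measured 257 and 197 against 1543 to 3308, a 10.0-fold deficit. Serpinb6e, an intracellular serpin (5.83-fold), Rnf130, a RING-finger ubiquitin ligase (5.53-fold), and Fam43a (4.37-fold) completed the 15. The weakest of the 4 Rnf130 probe sets gave a log2 difference of -0.045. Cdo1, Cyba and Fibin differed between Swiss 5 and Swiss 22 as well.

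**Figure D2:**
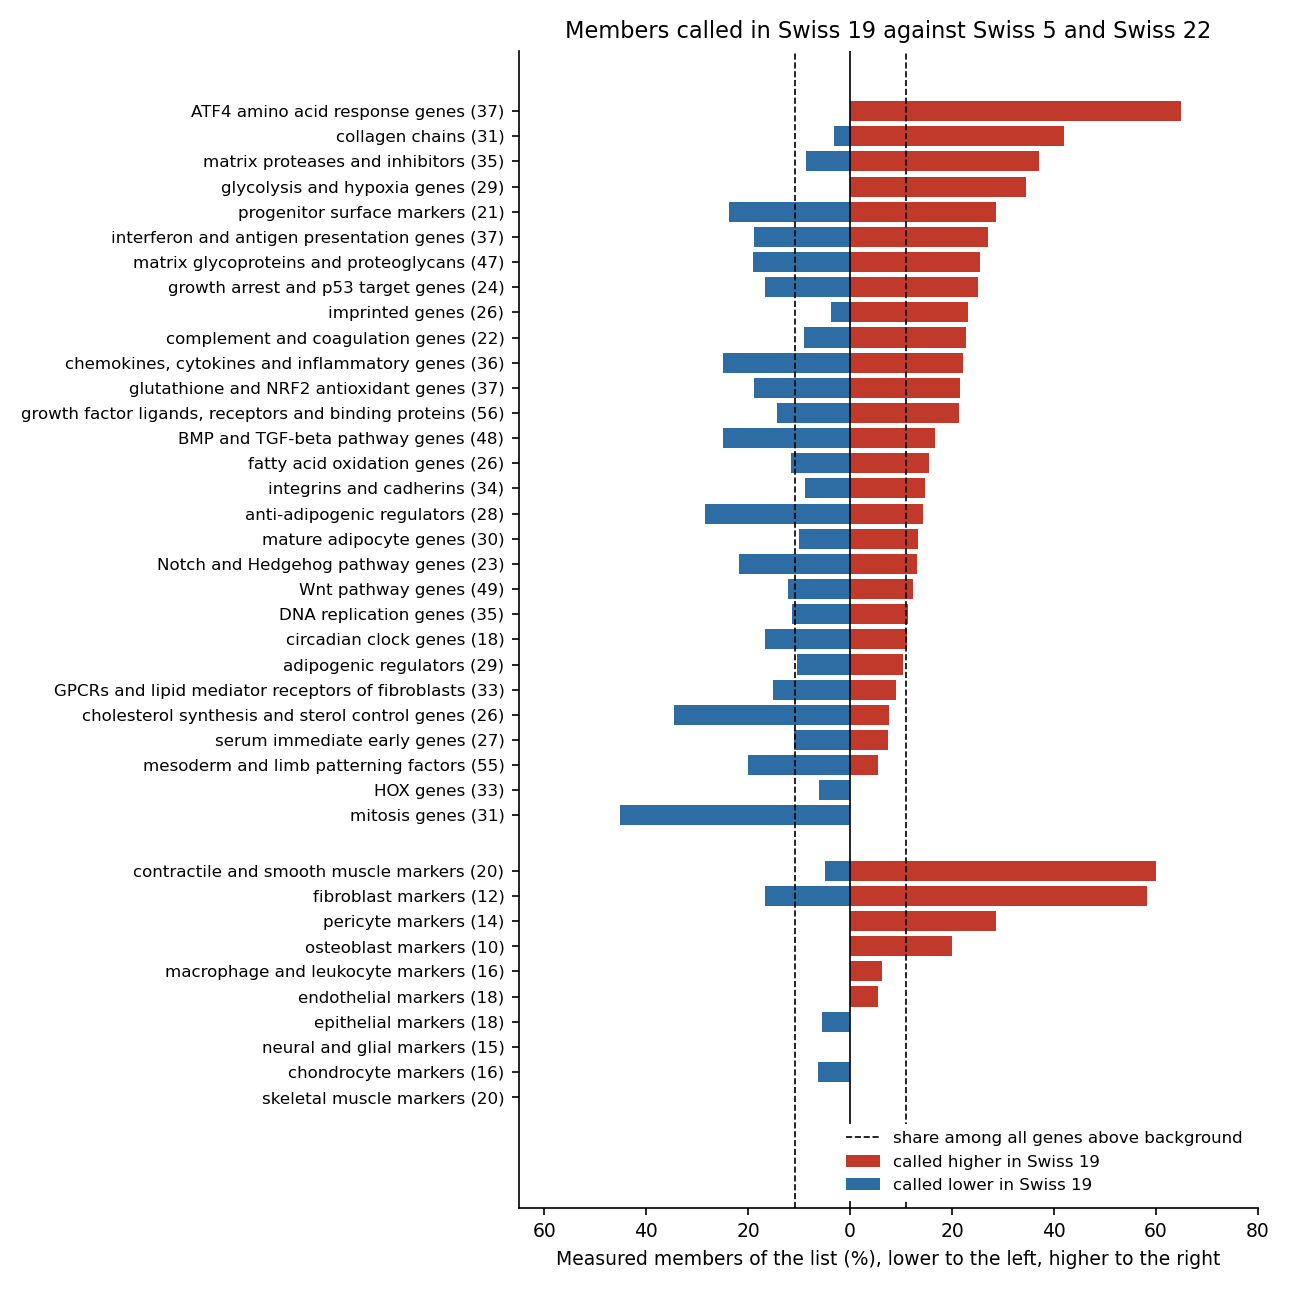
Share of the measured members of each list (number in parentheses) that were called higher (red, to the right) or lower (blue, to the left) in Swiss 19; pathway lists stand above, cell type marker lists below. Dashed lines mark the shares among all genes above background, 10.9% and 10.8%. The ATF4, contractile, fibroblast and collagen lists reach farthest to the right and the mitosis list farthest to the left.

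Core factors of fat cell formation were called in both directions. Of 29 measured adipogenic regulators, 3 were called higher and 3 lower, together 20.7%, beside 15.1% of all genes and 21.7% of those above background. Among the genes above background 10.9% were called higher and 10.8% lower, and the list counts below stand beside these shares. Cebpd measured 9146 and 8856 in Swiss 19, 5324, 5580 and 5776 in Swiss 5, and 6585, 7010 and 7032 in Swiss 22, a 1.45-fold excess (adjusted p = 0.00031), while its other probe set went the other way (log2 difference -0.26). Cebpb was 1.27-fold higher (adjusted p = 0.0027); it was called against Swiss 5 and not against Swiss 22, and not with median centring. The clock factor Arntl, also known as Bmal1, was at least 2.86-fold higher. On the lower side were Klf4 (1.69-fold), an early activator of Cebpb, the EBF-family factor Ebf3 (2.04-fold), and the Mediator subunit Med1 (1.51-fold).

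Pparg, the master regulator of adipogenesis, was not called. It measured 424 and 312 in Swiss 19, 249, 176 and 324 in Swiss 5, and 204, 278 and 256 in Swiss 22, a ratio of 1.49 with overlapping arrays (adjusted p = 0.262). Cebpa read 248 and 390 in Swiss 19, between Swiss 5 (148 to 283) and Swiss 22 (412 to 549), and its direction turned without normalization (0.17) and without Swiss 19 replicate 1 (0.065), with no call in either. Zfp423, a zinc finger factor tied to preadipocyte commitment, was above background on 1 of the 8 arrays, a Swiss 19 array at 84.1. Dlk1, a secreted inhibitor of adipogenesis known as Pref-1, measured 25552 and 24852 in Swiss 19, inside the gap between Swiss 5 (12857 to 19172) and Swiss 22 (29283 to 31925), and was not called.

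Regulators known to restrain adipogenesis were lower in 8 and higher in 4 of 28 measured genes. Lower were Sox9 (2.63-fold), which holds progenitors in an undifferentiated state, the Hedgehog effectors Gli3 (1.93-fold) and Gli2, the Hippo coactivators Yap1 and Wwtr1, the TGF-beta effector Smad3, and Gata2 and Klf3. Higher were Foxa2 (at least 3.81-fold), the stress pseudokinase Trib3 (2.01-fold), Irf3 (1.62-fold) and Tgfb1. The direction of this list followed the scaling, with 7 higher and 3 lower under median centring.

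Of 30 measured genes of mature fat cells, 4 were called higher and 3 lower, together 23.3%, beside 21.7% of all genes above background. Besides Lpl, these were the caveolar protein Cav1, at 16012 and 16199 against 4962 to 7388 (2.60-fold), the lipid droplet coat protein Plin2, at 7347 and 7072 against 2942 to 4086 (2.05-fold), and the fatty acid carrier Fabp4, at 1742 and 1810 against 796 to 1247 (1.81-fold). The insulin-responsive glucose transporter Slc2a4 (2.21-fold), the desaturase Scd1 (1.41-fold) and the elongase Elovl6 (1.38-fold) were lower. Adipoq, the gene of the fat cell hormone adiponectin, was above background on 1 of 8 arrays. The median of the list's log2 differences was 0.03, against -0.02 for all genes.

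Surface proteins used to recognize mesenchymal progenitors were called in both directions, with 6 of 21 called higher and 5 lower. Pdgfrb, the receptor of mural and perivascular progenitors, measured 4310 and 4764 in Swiss 19, 2533, 1820 and 2037 in Swiss 5, and 2542, 2612 and 2649 in Swiss 22, a 1.92-fold excess (log2 difference 0.86 ± 0.092 SE, adjusted p = 0.000362). It thus ran opposite to Pdgfra. Tissue factor, encoded by F3, was 2.73-fold higher, and the integrin chain Itgb1 1.37-fold. Lower beside Cd34 and Pdgfra were the adhesion molecule Vcam1 (1.77-fold), Thy1 (1.72-fold) and the cytokine receptor Il6st.

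Many genes of the amino acid response were higher in Swiss 19. The transcription factor ATF4 is translated when amino acids run short or unfolded protein builds up, and it switches on amino acid synthesis, import and tRNA charging. Of 37 measured members, 24 were called higher and 0 lower, against 7.57% and 7.48% of all genes, and the list's median log2 difference was 0.52. Against Swiss 5 alone 23 were higher, against Swiss 22 alone 24, and none was lower in either. Under the other ways of scaling the arrays 21 to 31 were higher and 0 lower, and with line means as replicates 6 and 0.

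The called members included transporters, synthetic enzymes and charging enzymes. Asns, the enzyme that makes asparagine, measured 10793 and 10962 in Swiss 19, 3940, 3884 and 4603 in Swiss 5, and 4559, 3911 and 3539 in Swiss 22, a 2.67-fold excess (log2 difference 1.41 ± 0.093 SE, adjusted p = 2.32e-05). Slc7a5, a carrier of large neutral amino acids, was 3.14-fold higher, at 3409 and 3498 against 849 to 1350, and Cth, which makes cysteine, 3.72-fold. Pck2, a mitochondrial enzyme linking amino acid to sugar metabolism, was 2.47-fold higher. The serine and one-carbon enzymes Psat1 (1.55-fold), Phgdh (1.42-fold), Shmt2 (1.78-fold) and Mthfd2 (1.93-fold) and the charging enzymes Gars (1.62-fold) and Aars (1.52-fold) were called too, as was Atf4 itself (1.36-fold).

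The letters of the C/EBP-ATF response element, TGATGNAA, were searched on both strands in the 250 bases before the start of each gene in the RefSeq promoter table (GRCm38.p6). Of the 24 called members, 19 had an entry and 6 of these (31.6%) held the letters, while 4 of 12 members with an entry that were not called (33.3%) did, and 3.91% of all 27025 genes of the table. A match is a run of letters and was not tested for binding. The 6 windows are shown because they are where these letters occur upstream of genes that were higher in Swiss 19; capitals mark the match, and each is printed on its gene's strand. The windows lie at chr6:7693210-7693258 (Asns, minus strand), chr14:55540137-55540196 (Pck2, plus), chr7:126625547-126625606 (Nupr1, minus), chr6:55037945-55038000 (Gars, plus), chr8:111033704-111033763 (Aars, plus) and chr19:27216794-27216853 (Vldlr, plus).
Asns: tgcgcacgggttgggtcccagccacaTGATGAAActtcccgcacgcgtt
Pck2: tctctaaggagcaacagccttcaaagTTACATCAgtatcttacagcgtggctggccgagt
Nupr1: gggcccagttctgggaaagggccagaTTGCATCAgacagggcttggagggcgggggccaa
Gars: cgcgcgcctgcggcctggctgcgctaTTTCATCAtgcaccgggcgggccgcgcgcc
Aars: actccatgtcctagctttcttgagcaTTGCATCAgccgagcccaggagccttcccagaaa
Vldlr: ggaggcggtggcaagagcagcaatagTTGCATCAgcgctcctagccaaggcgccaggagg
Only the Asns window carries the letters on the gene's own strand, 23 bases before the start; the other 5 carry them on the opposite strand.

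Collagen genes were mostly higher where they differed. Of 31 measured collagen chains, 13 were called higher and 1 lower. Col6a3, a chain of the pericellular type VI network, measured 3848 and 3658 in Swiss 19, 1187, 698 and 785 in Swiss 5, and 1456, 1639 and 1479 in Swiss 22, a 3.11-fold excess (adjusted p = 8.54e-05). The basement membrane chains Col4a1 (2.24-fold, at 18902 and 17686 against 7151 to 8922) and Col4a2 (2.23-fold), the fibril-associated Col12a1 (2.68-fold) and the fibrillar chains Col5a1 (2.45-fold), Col3a1 (1.82-fold) and Col1a1 (1.37-fold) were higher too. One of the 2 Col1a1 probe sets showed a log2 difference of -0.14 against 0.88 in the one used. Col8a1 was the chain that was lower. Against Swiss 5 alone 15 chains were higher and 1 lower, and against Swiss 22 alone 11 and 2. With line means as replicates 3 were higher and 0 lower.

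Other matrix components did not move one way. Of 47 glycoproteins and proteoglycans, 12 were called higher and 9 lower. Without Swiss 19 replicate 1 this split was 5 and 8. Fibronectin, encoded by Fn1, was 1.68-fold higher at 36884 and 33385 against 13549 to 25158, and periostin, encoded by Postn, 2.19-fold. Lum, the collagen-binding proteoglycan lumican, was at least 9.57-fold lower, at 102 and 48.7 against 504 to 1229. The elastic fibre protein Fbln5 was 2.35-fold lower and the elastin cross-linking enzyme Loxl1 1.81-fold. Among 35 proteases and inhibitors 13 were higher and 3 lower, and without Swiss 19 replicate 1 it was 7 and 4. Adamts5, an aggrecan-cutting protease, was 2.92-fold higher, Mmp2, a gelatinase, 2.49-fold, and Mmp23 at least 7.59-fold, while the secreted protease Htra1 was 2.54-fold lower and Mmp9 3.09-fold. Of 34 integrins and cadherins 5 were higher and 3 lower, together 23.5%, beside 21.7% of all genes above background. The fibronectin receptor chain Itga5 measured 3264 and 3258 against 1171 to 1467 (2.43-fold higher).

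Genes of the contractile apparatus were higher in Swiss 19. Of 20 contractile and smooth muscle markers, 12 were called higher and 1, Smtn, lower, and the median log2 difference was 0.42. Acta2, smooth muscle alpha actin, measured 71688 and 72670 in Swiss 19, 34197, 34993 and 33642 in Swiss 5, and 36478, 34807 and 37552 in Swiss 22, a 2.05-fold excess (log2 difference 1.56 ± 0.059 SE, adjusted p = 1.08e-06). The myosin light chain Myl9 was 2.82-fold higher, the actin cross-linker Flna 2.37-fold, Tagln 2.34-fold and the calponin Cnn1 at least 8.23-fold. Myh11, the myosin heavy chain of mature smooth muscle, was above background on no array, and Myocd on 1, an array of Swiss 5. The summed level of the 20 markers was 186566 to 190817 in Swiss 19, 109095 to 112143 in Swiss 5 and 112649 to 115025 in Swiss 22. In these bulk samples a change in the share of contractile cells and a change in RNA per cell cannot be told apart. With line means as replicates 6 were higher and 0 lower.

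Of the 12 fibroblast markers 7 were called higher and 2, Fap and Thy1, lower. The higher ones included collagen chains and Vim, whose mean was 65543 in Swiss 19, 60131 in Swiss 5 and 59318 in Swiss 22. Markers of other cell types were mostly dim. Of 20 skeletal muscle markers 0 were called by limma, with 1 higher and 1 lower at an unadjusted p below 0.05; 1 was called higher without normalization and 1 without Swiss 5 replicate 2. Among 18 endothelial markers Ramp2 was called higher, among 16 macrophage and leukocyte markers Csf1r was called higher, and among 18 epithelial markers Epcam was called lower, each at 738 or less on every array. Pecam1 and Ptprc, which define endothelial cells and leukocytes, were above background on no array. Of 14 pericyte markers 4 were called higher, namely Pdgfrb, Angpt1 (2.07-fold), Notch3 (1.53-fold) and Anpep (at least 1.15-fold), and of 10 osteoblast markers 2, namely Col1a1 and Alpl. The calls of Csf1r, Epcam, Alpl, Ramp2 and Anpep were each lost without replicate 1 or without replicate 2 of Swiss 19. That of Notch3 was lost without replicate 1. Of 15 neural and glial markers 0 were called by limma, 1 being higher at an unadjusted p below 0.05, with 1 called under median centring and 3 without normalization. Of 16 chondrocyte markers Sox9 was the one called, lower. Their part in the other results was not tested.

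Genes of mitosis were lower in Swiss 19 under quantile normalization. Of 31 measured mitosis genes 14 were called lower and 0 higher, with a median log2 difference of -0.24. Birc5, which encodes the chromosomal passenger survivin, measured 3349 and 3335 in Swiss 19, 6304, 6852 and 6466 in Swiss 5, and 6748, 6631 and 7288 in Swiss 22, 2.01-fold lower (log2 difference -0.86 ± 0.060 SE, adjusted p = 3.25e-05). The mitotic cyclins Ccnb2 (2.08-fold) and Ccna2 (1.66-fold), Top2a (1.49-fold), the kinase Cdk1 (1.40-fold) and Cdc20 (1.31-fold) were lower as well. The count depended on scaling: 4 lower and 0 higher with median centring, 2 lower and 1 higher without normalization, and 8 to 15 lower with 0 higher under the other scalings. With line means as replicates 1 was lower. Without Swiss 19 replicate 1 it was 8, and without replicate 2 it was 7.

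Among 35 DNA replication genes 4 were called higher and 4 lower, together 22.9%, beside 21.7% of all genes above background. Fen1, a flap endonuclease, was 3.23-fold lower, though its arrays were spread (1152 and 830 in Swiss 19 against 2202 to 4205). The second Fen1 probe set showed little difference (log2 difference -0.08). The thymidine kinase Tk1 was 1.74-fold lower. Rrm2, a subunit of ribonucleotide reductase, was 1.45-fold higher and the licensing factor Cdt1 1.47-fold. Of 24 growth arrest and p53 target genes, 6 were higher and 4 lower. The growth-arrest protein Gas1, also a Hedgehog co-receptor, measured 10790 and 11838 against 28228 to 35416 (2.77-fold lower), and the cyclin-dependent kinase inhibitor Cdkn2c was 2.77-fold lower. The growth-arrest ligand Gas6 was 1.88-fold higher and the p53 inhibitor Mdm2 1.63-fold.

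Several enzymes of sterol synthesis were lower. Of 26 cholesterol genes, 9 were called lower and 2 higher. Hmgcs1, which starts the pathway, measured 9108 and 8533 in Swiss 19, 18420, 16138 and 16864 in Swiss 5, and 14144, 15074 and 14824 in Swiss 22, 1.80-fold lower (adjusted p = 0.000111). Mvk, mevalonate kinase, was 1.81-fold lower, the sterol carrier Stard4 1.58-fold and the master regulator Srebf2 1.34-fold. The cholesterol exporter Abca1 was 1.73-fold higher against the mean of the clones but not called against Swiss 22. Under median centring the list split into 3 higher and 3 lower.

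Of 29 glycolysis and hypoxia genes, 10 were called higher and 0 lower, among them Egln3, an oxygen-sensing hydroxylase (2.54-fold), Eno2 (at least 2.53-fold) and P4ha2 (1.40-fold). Pgk1 was only 1.13-fold higher in scaled intensity. Without Swiss 19 replicate 1 this count was 3 higher and 1 lower, and without replicate 2 it was 3 and 0; with arrays scaled before the pseudocount it was 4 and 0. Of 26 fatty acid oxidation genes 4 were higher and 3 lower, together 26.9%, beside 21.7% of all genes above background, led by Decr1 (1.59-fold higher). Of 37 antioxidant genes 8 were higher and 7 lower, or 12 and 4 under median centring: extracellular superoxide dismutase, Sod3, at 4176 and 4401 against 1091 to 1464 (3.48-fold higher), and Gpx7 (4.01-fold higher) stood against Gsto1, at 14865 and 14952 against 31506 to 44818 (2.48-fold lower).

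Genes of several signalling pathways were called in both directions. Of 48 BMP and TGF-beta genes, 8 were higher and 12 lower. Among the antagonists, Grem1, a BMP antagonist, was 2.48-fold lower beside Fst. The target Id2 measured 397 and 594 in Swiss 19, 1860, 1942 and 1789 in Swiss 5, and 1442, 1569 and 1789 in Swiss 22, 3.50-fold lower (adjusted p = 5.23e-05). The related targets Id1 (1.90-fold), Id3 (1.52-fold) and Id4 (1.86-fold), which encode inhibitors of helix-loop-helix factors, were called lower too. Ccn2, a target of TGF-beta, was 3.25-fold higher, and the ligand Tgfb3 3.12-fold.

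Of 49 Wnt genes, 6 were higher and 6 lower, together 24.5%, beside 21.7% of all genes above background. The secreted Wnt modulators split: Sfrp2 measured 2233 and 2156 in Swiss 19 against 378 to 541 (4.88-fold higher), and Sfrp1 258 and 205 against 410 to 1461 (3.95-fold lower). The receptor Fzd8 was at least 4.18-fold higher, the ligand Wnt5a 1.83-fold lower and the receptor Fzd4 1.97-fold lower. In the 23 Notch and Hedgehog genes 3 were higher and 5 lower. The Notch ligand Jag1 was 2.66-fold higher, whereas the Hedgehog co-receptor Cdon was 1.91-fold lower, beside Gas1, Gli2, Gli3 and Boc.

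Of 56 growth factors, receptors and binding proteins 12 were higher and 8 lower, and 18 and 7 under median centring. Igf2, an insulin-like growth factor, measured 1607 and 1493 in Swiss 19, 178, 28.4 and 89.1 in Swiss 5, and 482, 686 and 517 in Swiss 22, at least 4.50-fold higher (adjusted p = 8.64e-05), and it was also lower in Swiss 5 than in Swiss 22. Grb14, an adaptor that restrains the insulin receptor, was 3.24-fold higher, hepatocyte growth factor, Hgf, 4.21-fold and Igfbp6 3.33-fold. The heparin-binding factor Ptn was 2.06-fold lower. Of 33 G protein-coupled receptor and lipid mediator genes 3 were higher and 5 lower, together 24.2%, beside 21.7% of all genes above background. The prostaglandin receptor Ptger4 was 2.71-fold higher and Rgs16, which shuts off G proteins, 2.02-fold lower. Among 22 complement and coagulation genes, 5 were higher and 2 lower, and the lower ones were the thrombin receptor F2r (1.85-fold) and Clu (3.00-fold).

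Inflammatory genes were called in both directions. Of 36 chemokine, cytokine and inflammatory genes, 8 were higher and 9 lower, and 10 and 2 without normalization. Il6 measured 1946 and 1782 in Swiss 19, 471, 478 and 430 in Swiss 5, and 518, 500 and 480 in Swiss 22, a 3.89-fold excess (log2 difference 1.23 ± 0.056 SE, adjusted p = 2.81e-06). The pattern-recognition protein Ptx3 (1.82-fold), the iron-carrier-binding protein Lcn2 (1.81-fold) and the chemokine Ccl20 (at least 4.38-fold) were higher as well. The chemokine Ccl2 was 1.59-fold lower, Cx3cl1 2.27-fold and Csf2 at least 4.15-fold, the last not above background in Swiss 19.

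Of 37 interferon and antigen presentation genes, 10 were higher and 7 lower. Usp18, which dampens interferon signalling, was 4.42-fold higher at 700 and 719 against 84.6 to 255, Ifit1 2.73-fold and Bst2 1.76-fold. On the lower side stood H2-K1, a class I antigen-presenting chain, at 7787 and 7368 against 14460 to 16664 (2.09-fold), the immunoproteasome subunit Psmb8 (4.36-fold) with Psmb10, the loading factor Tapbp, and Ifit2 (2.64-fold). B2m, the light chain that pairs with H2-K1, was 1.16-fold higher. Under median centring the list had 14 higher and 5 lower.

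Factors of position and lineage were called in a direction that moved with the scaling. Of 55 mesoderm and limb patterning factors, 3 were higher and 11 lower, together 25.5%, beside 21.7% of all genes above background. With median centring 7 were higher and 4 lower. Hic1, a transcriptional repressor found in mesenchymal progenitors, was 2.26-fold lower at 972 and 1087 against 2206 to 2509. Twist2 (1.93-fold), Osr1 (1.91-fold) and Prrx1 (1.65-fold) were lower, and Tbx18 was 2.34-fold higher. Of 33 HOX genes, which record position along the body, 0 were called higher by limma, also at an unadjusted p below 0.05. Hoxd8 (1.64-fold) and Hoxa2 (1.59-fold) were lower, and median centring gave 1 HOX gene higher and 1 lower. The call of Hoxa2 was lost in 15 of 21 alternatives, among them both other pseudocounts, the replicate block and leaving out either Swiss 19 array.

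Of 26 imprinted genes 6 were higher and 1 lower, together 26.9%, beside 21.7% of all genes above background. Ndn, a growth suppressor expressed from the paternal copy, measured 2081 and 1831 in Swiss 19, 430, 411 and 279 in Swiss 5, and 530, 472 and 328 in Swiss 22, a 4.79-fold excess (adjusted p = 3.63e-05) with the same sign in all 8 probe sets. Peg3 was 2.02-fold higher, while the zinc finger factor Plagl1 was 3.99-fold lower, with 1 of its 3 probe sets of the other sign. In 18 clock genes, 2 were higher and 3 lower, together 27.8%. The repressor Nr1d2 measured 738 and 781 against 2018 to 2284 (2.85-fold lower) and the output factor Dbp was 2.62-fold lower, opposite to Arntl. Of 27 serum-induced immediate early genes 2 were higher and 3 lower, together 18.5%, with Egr1 2.14-fold lower, Fosl2 1.69-fold lower and Klf10 1.91-fold higher.

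**Figure D3:**
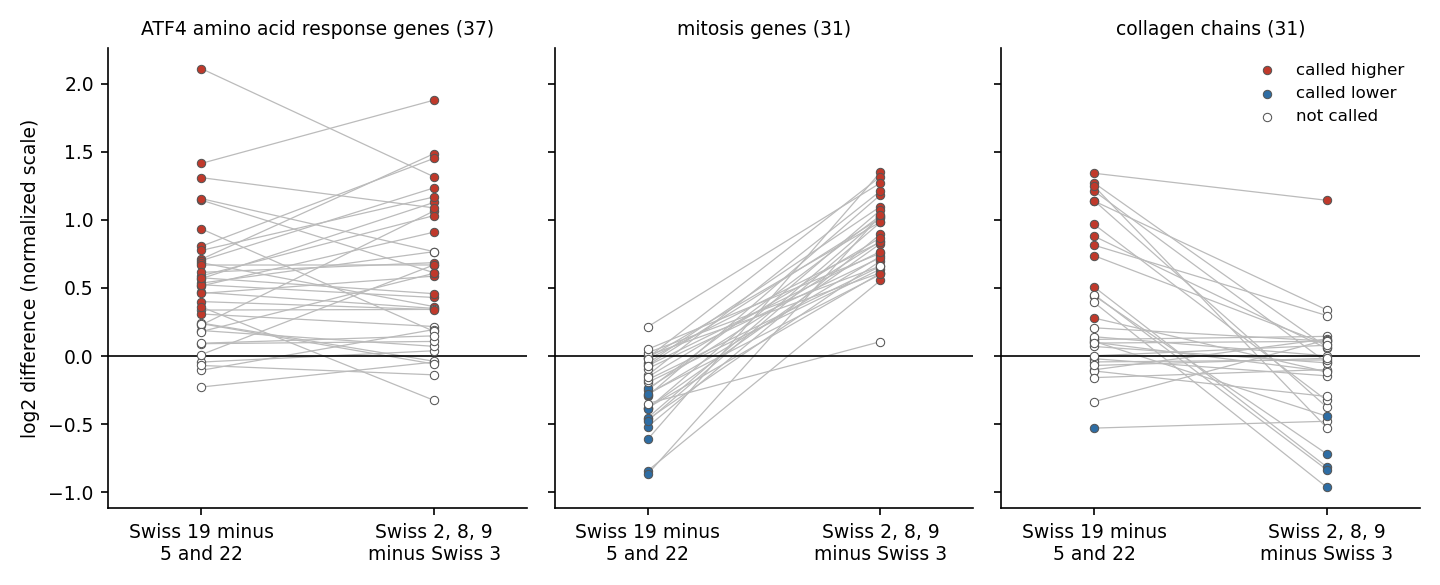
Log2 differences of each member of 3 lists in Swiss 19 against Swiss 5 and 22 (left column of a panel) and in Swiss 2, 8 and 9 against Swiss 3 (right column); a grey line joins the values of 1 gene and fill shows the call. Of the 37 ATF4 genes 33 lie above 0 on the left, mitosis genes lie mostly below 0 on the left and above it on the right, and collagens that were higher on the left are spread on both sides of 0 on the right.

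The same class contrast was fitted in other clones, Swiss 2, 8 and 9 against Swiss 3. Their 12 arrays were not in the fit of Swiss 19, Swiss 5 and Swiss 22, but all 20 arrays were quantile-normalized together, and some of the named genes were chosen with the calls of these lines. The contrast called 1357 genes higher (7.46%) and 1522 lower (8.37%), together 15.8%. Of the 1378 genes higher in Swiss 19, 357 (25.9%) were called higher there and 145 (10.5%) lower. Of the 1361 lower genes, 502 (36.9%) were called lower there and 127 (9.33%) higher. The base of 7.46% and 8.37% covers all genes, whereas every gene called in Swiss 19 had passed the background rule. In the main comparison the share called rose from 15.1% of all genes to 21.7% of those above background. That share was not computed for the other lines, and the opposite-way shares also exceeded the base. The calls of the same direction make up 26.3% of the higher and 33.0% of the lower calls of the other lines. Of the genes that differed by a log2 value of at least 1, 35 of 84 higher and 33 of 47 lower were shared, and 6 and 1 were called the opposite way. The 9 arrays of Swiss 2, 8 and 9 were dim (mean intensity 25.6 to 52.5) and those of Swiss 3 ranged from 39.98 to 71.97, so brightness differs between the sets of lines; its part was not tested.

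**Figure D4:**
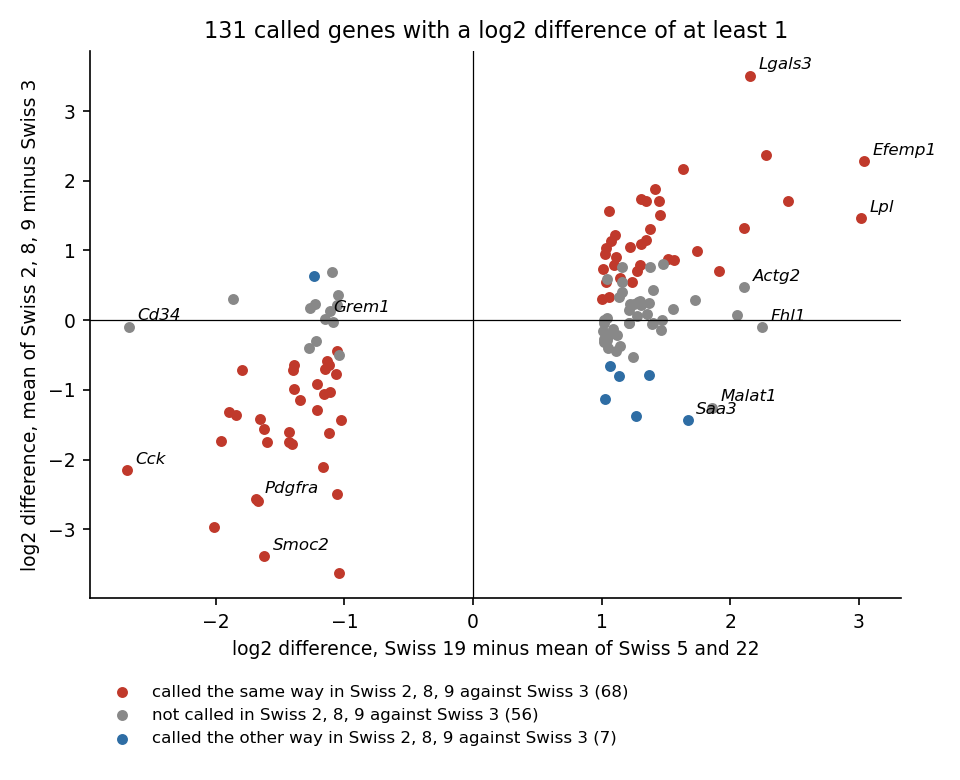
Log2 difference in Swiss 19 against Swiss 5 and 22 (horizontal) and in Swiss 2, 8 and 9 against Swiss 3 (vertical) for the 131 called genes with a log2 difference of at least 1. Red genes (68) were called the same way in the second set, grey (56) were not called there and blue (7) were called the other way; Lgals3, Efemp1 and Lpl lie high on both axes, Cd34 and Fhl1 near 0 on the vertical one.

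Of the 30 named genes with the largest differences, 22 were called the same way in the other lines and 1, Saa3, the opposite way. Lgals3 measured 5334, 3635 and 7900 as means of Swiss 2, Swiss 8 and Swiss 9 and 16.7 in Swiss 3. Efemp1 measured 2804, 2065 and 1547 against 55.9, and Igfbp4 6893, 5115 and 7511 against 772. Each was thus high in all 4 preadipose clones and low in all 3 others. Cck, Cyba, Pdgfra, S1pr3, Fibin, Smoc2, Spry2 and Fam43a were lower in both sets: Cyba read 32.4, 40.1 and 17.2 against 3445 in Swiss 3, and Smoc2 117, 99.2 and 131 against 5679. Like Lgals3, Efemp1 and Igfbp4, they also met the naming rule for genes called the same way in both sets, so their agreement was fixed by that choice. Pou3f3, Cdo1, Fst, Mn1 and Rnf130 were called lower in both sets too. In the ATF4 list 22 genes were called higher in the other lines and 19 were called higher in both sets.

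Other differences were not called in the second set or ran against it. Cd34, below background in Swiss 19, measured 1226, 1202 and 2312 in the other preadipose clones and 1646 in Swiss 3, with no call. Fhl1 read 69.5, 279 and 183 against 235, and Actg2 124, 242 and 820 against 127. Pdgfrb was 1988, 2021 and 1570 against 3714, lower where Swiss 19 was higher. Mitosis genes also ran the other way: 29 of 31 were called higher in Swiss 2, 8 and 9 than in Swiss 3, including all 14 that were lower in Swiss 19. Of the interferon genes 24 were lower in the other preadipose lines and 0 higher, and 8 of the 10 that were higher in Swiss 19 were among them. So were 6 of the 7 that were lower in Swiss 19, which thus went the same way in both sets. Of the matrix proteases and inhibitors 2 were called higher and 14 lower in the other lines, with 5 called the same way in both sets and 6 the opposite way. Of the collagen chains 1 was higher and 5 were lower there, with 1 called the same way in both sets and 2 the opposite way. Fabp4 was lower in the other preadipose clones, at 329, 337 and 282 against 1368.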

How the data were processed

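RNA of 20 samples of clonal Swiss 3T3 lines was measured on single-colour 3′ expression arrays, from total RNA amplified with an oligo-dT primer and labelled with biotin, per the labels' protocols. The deposited intensity values are linear, 1 per probe set, and their array means differ; the summarization the authors used is not given in the sources used here. The value table held 45101 probe sets, of which 64 were controls, 34945 had 1 gene symbol, 932 had several and 9160 were not named; the last 2 kinds were left out. Each of 18193 genes was represented by its probe set of highest mean. Other probe sets of a named gene could show a smaller or opposite difference, also where the text does not say so. Values were taken as log2 of intensity plus a pseudocount of 32, quantile-normalized over all 20 arrays and fitted by lmFit and eBayes (limma 3.58.1, R 4.3.3) with 1 term per line and Benjamini-Hochberg adjustment over all genes. The comparisons among Swiss 19, Swiss 5 and Swiss 22 came from 1 fit of their 8 arrays, those of the other lines from a fit of 12, and the difference between the sets from a fit of all 20.

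Scaled intensity brought each array's mean, trimmed by 2% at each end, to 500, and background was the 95th percentile of 27 unspiked bacterial probe sets. The number of arrays limits the precision, above all the 2 of Swiss 19. Genes were named by rule: 8 fixed genes, the 15 largest called differences in each direction, up to 4 called members of each of 39 lists (or 2 where none was called), and the largest differences shared with or opposite to the other lines. Further list members are named to fill out the counts and were chosen after their values were seen. The comparison, lists and rules were chosen with earlier results of these data known. Of 1205 list entries 1122 were matched, 9 by an older name. Alternatives changed the normalization, pseudocount, filter, probe sets, fit, replicates and covariates. The procedure was tested on simulated data.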

Additional observations from a re-analysis of the deposited data

Results flagged for a closer look

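For 43 named genes the difference between Swiss 19 and the mean of Swiss 5 and 22 had the opposite sign to the difference between Swiss 2, 8 and 9 and Swiss 3, and the difference of these differences passed a limma test on all 20 arrays (adjusted p 5.22e-11 to 0.0459). Values below are that log2 difference of differences. All 43 are among the 142 named genes called in Swiss 19. Up to 5 in each direction were named because they were called in opposite directions in these same contrasts. For those the opposite sign was fixed by the choice of genes, and the test is no separate evidence. For the rest, the test uses again the Swiss 19 difference that had already been called. It asks whether the differences are unequal, not whether their signs are opposite. Some differences in the other lines were near 0, such as those of Egr1 (0.00075), Osr1 (0.017), Grem1 (0.020) and Fhl1 (-0.097). Positive values, from genes higher in Swiss 19, led with Malat1 (3.12), Saa3 (3.10), Rsrp1 (2.64), Gas6 (2.57), Lcn2 (2.44) and Fhl1 (2.35). In matrix and protease genes it was 2.17 for Postn, 2.15 for Adamts5, 1.77 for Col12a1, 1.51 for Col3a1 and 1.26 for Col5a1. Among surface and signalling genes it was 1.71 for Pdgfrb, 1.60 for Sfrp2, 1.33 for Jag1, 1.32 for F3, 0.92 for Itgb1, 0.83 for Edn1, 0.70 for Notch3 and 0.37 for Ramp2. It was 1.94 for Ptx3, 1.83 for Fabp4, 1.70 for Usp18, 1.54 for Mgst1, 1.45 for Abca1, 1.45 for Gpx7, 1.15 for Btg2, 1.07 for Alpl, 1.06 for Peg3 and 0.63 for Eno2.

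Negative values, from genes lower in Swiss 19, included the proliferation genes Ccna2 (-1.96), Birc5 (-1.90), Tk1 (-1.88), Dtymk (-1.54), Fen1 (-1.44), Cenpa (-1.41) and Ccnb2 (-1.40). The others were Serpinb6e (-2.18), Sox9 (-1.50), Gsto1 (-1.46), Zfp36l2 (-1.32), Grem1 (-1.17), Osr1 (-0.73) and Egr1 (-0.54). The arrays of Swiss 2, 8 and 9 were dimmer than those of Swiss 19, so the set of lines and array brightness cannot be told apart here. Among all genes tested, 1855 were of opposite sign and also passed the limma test of the difference of differences. With no normalization between arrays it was 5874, with median centring 4033, and with linear scaling, a larger pseudocount and no quantile step 1750.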

How the results depend on the processing

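Normalization moved the split between higher and lower calls most. The Swiss 5 arrays were dimmer, and the cause was not tested. In this section, genes counted as of opposite sign between the sets also passed the limma test of the difference of differences. Median centring gave 2088 genes higher and 504 lower in Swiss 19, 4099 and 443 against Swiss 5 alone, and 85 and 4578 for Swiss 5 against Swiss 22; in Swiss 2, 8 and 9 260 were higher, 108 higher and 185 lower genes were shared between the sets of lines, and 4033 differed between them with opposite sign. Without normalization these counts were 3748 and 201, 7685 and 157, 36 and 6992, 92, 61 and 108, and 5874, and 552 genes were lower than in Swiss 22. Scaling before the pseudocount gave 743 and 737, 658 and 643 against Swiss 5, 522 and 541 against Swiss 22, 4 and 0 by limma for Swiss 5 against Swiss 22, and 201 and 289 shared. The scaling chosen after seeing the data gave 31 and 41 for Swiss 5 against Swiss 22; quantile normalization over the fitted arrays gave 74 and 105, the larger pseudocount 382 and 424, and the fit of all 20 arrays 150 lower. A pseudocount of 8 gave 850 lower than Swiss 5, 723 and 719 against Swiss 22, and 15 and 11 for Swiss 5 against Swiss 22.

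Line means as replicates gave 105 and 66, 161 and 181 for Swiss 2, 8 and 9 against Swiss 3, and 15 and 17 shared. Leaving out 1 array at a time gave 631 to 1346 higher and 585 to 1334 lower, 626 to 1219 and 591 to 1167 against Swiss 5, 532 to 1186 and 510 to 1215 against Swiss 22, 31 to 136 and 27 to 176 for Swiss 5 against Swiss 22, 1352 to 1489 and 1524 to 1617 in the other lines, 205 to 378 and 279 to 522 shared, and 1242 to 1950 of opposite sign. Replicate numbers did not pair the arrays (correlations of same-numbered deviations between lines -0.066 to 0.025); with replicate number as a block the counts were 1013 and 959, and 49 and 44 for Swiss 5 against Swiss 22. Cebpa turned to 0.17 without normalization and between -0.18 and 0.065 without 1 of the Swiss 19 arrays, and Hadha to 0.063 without normalization; the cause was not tested. Of 142 called named genes 102 kept the call in every alternative but line means, which kept 60; without either Swiss 19 array 21 lost it.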

Other observations

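The non-adipogenic clones were not interchangeable in every gene. Swiss 5 was lower than Swiss 22 in the imprinted genes Dlk1 (log2 difference -1.01), Peg3 (-0.88) and Igf2 (-0.85), in the matrix protein gene Postn (-0.97), in the cholesterol exporter Abca1 (-0.95) and in Lcn2 (-0.93), all called by limma. It was higher in Cyba (0.97), Hoxd8 (0.66) and Slpi (0.64). For Dlk1 and Abca1 the gap between these clones was larger than the difference of Swiss 19 from their mean (0.34 and 0.75). For Peg3, Postn and Lcn2 it was nearly as large as that difference (0.88, 1.03 and 0.99). For Hoxd8 the difference of Swiss 19 from their mean lay between -0.63 and -0.46 when 1 array was left out, smaller than its gap.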
